A study of Rattus norvegicus with 12 samples.

Results

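Complement components and regulators were followed in RNA from the hearts of male Wistar rats. The genes were chosen by name, with earlier results of these data known: C1qa, C1qb, C1qc, C1r, C1s, C2, C3, Serping1 and C3ar1. Of these 9 genes, 8 had a row by that name among the 30560 genes of the count table and all 8 passed the filter of at least 10 counts in total. C2 was not analysed here. The 12 rats fell into 3 groups of 4. Sham rats had their chest opened at 7 weeks of age without a ligature and were given vehicle. MI rats had a myocardial infarction, made at the same age by permanent ligation of a coronary artery, and were given vehicle. MI + UA rats had the same infarction and were given urolithin A (UA), a compound that gut bacteria make from plant ellagitannins, by daily gavage for 8 weeks, the same period as the vehicle. The sources do not give 1 UA dose or 1 starting day, so neither is stated. RNA came from 20 µm sections of fixed and paraffin-embedded tissue of the left ventricle, so each library mixes all cell types of those sections. The paper's RNA protocol does not say which level of the ventricle was used. Rat 66 is MI + UA by its label but stands among the vehicle-treated infarcted rats in the study's echocardiography data, and it was kept in MI + UA.

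Libraries held between 6228706 and 19031695 reads on genes. Between 50.2% and 58.6% of these lay on the 13 mitochondrially encoded genes, which leaves less depth for the complement genes. Levels are given as CPM, the counts of a gene scaled to a common library size, as mean ± SD over 4 rats, and changes as log2 fold changes with their standard error (SE). The share of aligned, uniquely placed reads that fell on genes was between 50.4% and 53.4% in Sham, between 47.6% and 49.8% in MI and between 46.2% and 50.8% in MI + UA. This share did not overlap between Sham and MI, and its part in the results below was not tested. The labelled tissue was borne out by its markers, since 6 cardiomyocyte genes together reached between 12100 and 20300 CPM in each of the 12 rats.

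Complement is a cascade of plasma and tissue proteins that marks dying cells, debris and microbes for removal. In the classical pathway C1q, built from A, B and C chains, recognises its target and activates the serine proteases C1r and C1s, which cleave C4 and C2 to form an enzyme that splits C3. The C3a fragment acts through the receptor C3ar1, and the C1 inhibitor, encoded by Serping1, shuts off C1r and C1s. Most plasma complement is made in the liver, while C1q is made mainly by macrophages, and fibroblasts are a tissue source of C1r, C1s and the C1 inhibitor. Complement activation is a known part of the response to infarction.

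The upstream sequences are shown for 4 genes between which the changes below are contrasted: the C1q chains C1qa and C1qb, the protease C1r, which had the smallest estimated change, and C3, which had the largest. In the RefSeq annotation of the GRCr8 assembly, C1qb, C1qc and C1qa follow each other on chromosome 5, and C1r lies next to C1s on chromosome 4. RefSeq promoter windows, from 250 bases before the annotated start to 50 bases after it, were at hand for 5 of the 9 genes. The counts were made on another assembly, mRatBN7.2, so these coordinates apply to GRCr8 only. Capitals mark matches on either strand to TTNNGNAA (the C/EBP motif), GAGGAAG (an ETS and PU.1 motif), the interferon response motif (GAAA, then NN, then GAAA) and TTCNNNGAA (the STAT motif). Matches to these motifs did not overlap each other.
C1qa (chr5:154419884-154420183, minus strand): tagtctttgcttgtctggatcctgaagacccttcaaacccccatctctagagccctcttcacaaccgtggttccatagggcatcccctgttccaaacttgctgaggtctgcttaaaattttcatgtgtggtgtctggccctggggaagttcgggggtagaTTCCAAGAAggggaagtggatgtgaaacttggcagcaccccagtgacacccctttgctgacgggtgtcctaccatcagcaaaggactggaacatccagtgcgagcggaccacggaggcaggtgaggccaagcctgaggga
C1qb (chr5:154407778-154408077, minus strand): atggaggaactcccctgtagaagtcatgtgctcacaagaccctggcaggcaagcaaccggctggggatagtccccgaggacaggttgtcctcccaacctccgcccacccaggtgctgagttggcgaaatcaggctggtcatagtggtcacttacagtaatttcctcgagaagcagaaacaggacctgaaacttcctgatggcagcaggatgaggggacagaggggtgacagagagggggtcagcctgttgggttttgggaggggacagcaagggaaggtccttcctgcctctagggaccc
C1r (chr4:159098763-159099062, plus strand): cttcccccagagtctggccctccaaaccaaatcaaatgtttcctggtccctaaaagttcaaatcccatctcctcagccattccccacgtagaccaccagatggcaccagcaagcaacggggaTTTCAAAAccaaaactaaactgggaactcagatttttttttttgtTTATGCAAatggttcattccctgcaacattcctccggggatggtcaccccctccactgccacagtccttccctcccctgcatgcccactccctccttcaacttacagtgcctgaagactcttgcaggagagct
C3 (chr9:2201290-2201589, minus strand): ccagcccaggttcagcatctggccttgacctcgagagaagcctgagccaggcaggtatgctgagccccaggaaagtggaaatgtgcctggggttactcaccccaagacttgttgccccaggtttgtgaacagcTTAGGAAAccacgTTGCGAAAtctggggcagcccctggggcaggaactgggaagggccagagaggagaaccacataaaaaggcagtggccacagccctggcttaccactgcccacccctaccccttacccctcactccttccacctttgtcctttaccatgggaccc
The C3 window held the C/EBP letters at positions -117 and -104 from the start and the C1r window at positions -128 and -83, against 41.3% of 33469 rat promoter windows with at least 1 match. The C1qa window held the STAT letters at position -90, found in 8.87% of all windows. No match to the ETS and PU.1 letters (12.4% of all windows) or the interferon response letters (3.92%) lay in these 4 windows or in that of C3ar1. The letters of the NF-kB motif (GGG, then NNNNN, then CC), not capitalised here and in places overlapping each other, were in all 5 windows and in 47.3% of all windows. These are letter matches only.

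The first comparison asked how complement expression differed between infarcted and sham-operated hearts. Each of the 8 genes was higher in MI than in Sham, from 1.40-fold for C1r to 5.29-fold for C3, and each passed the threshold of 0.05 on the adjusted p of edgeR's quasi-likelihood test. Of all 18182 genes tested, 5.82% were called higher in the same fit. The median log2 fold change was 0.81 over the 8 genes and 0.03 over all genes. The MI and Sham rats did not overlap at 7 of the 8 genes, C3ar1 being the exception, while 10.0% of all genes with an average log2 CPM of at least 1 had every MI rat above every Sham rat. With rat 66 counted in MI, 8 of the 8 genes were again called higher. In such bulk libraries, more cells of a type and more RNA per cell cannot be told apart.

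**Figure D1:**
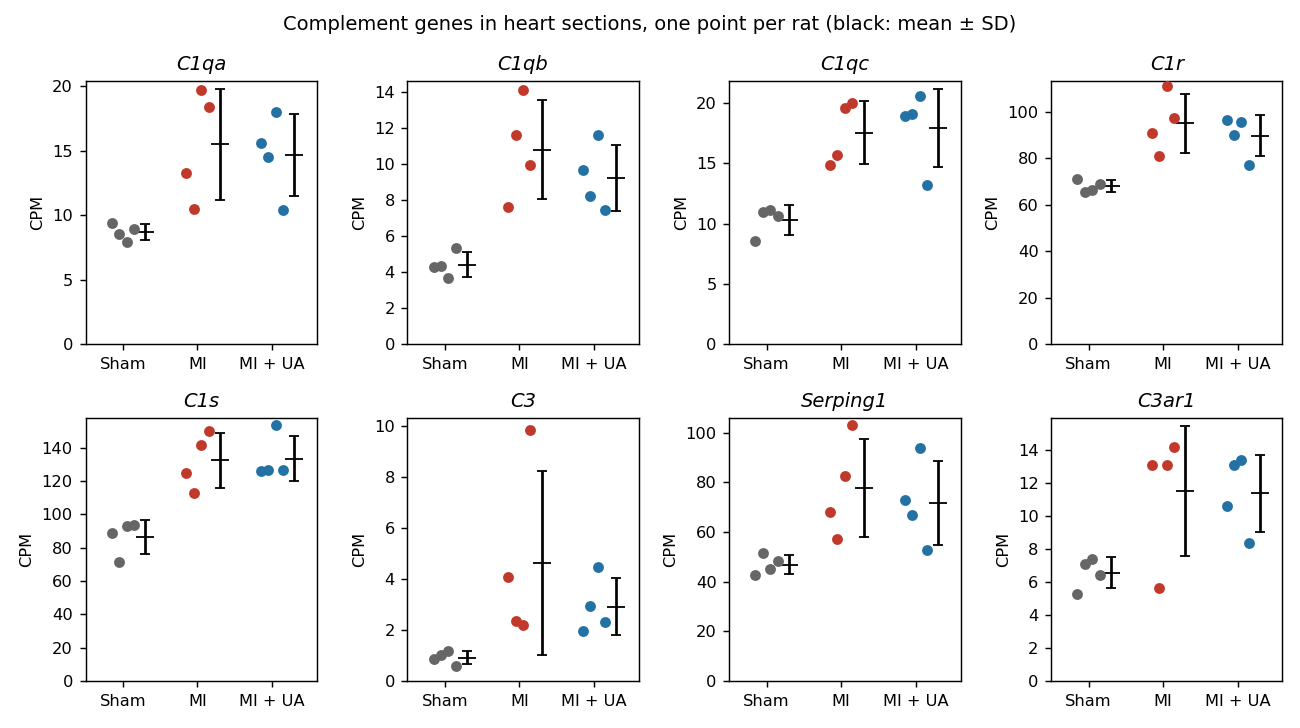
Level of each complement gene in CPM (y axis, linear from 0) in Sham, MI and MI + UA, with 1 point per rat and the mean ± SD of 4 rats in black. MI and MI + UA rats lay above the Sham rats throughout, apart from C3ar1 in MI rat 57 at 5.65 CPM.

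The recognition molecule comes first in the cascade, and each of its chains rose in MI. C1qa (ENSRNOG00000012807), the A chain, stood at 9.41, 8.52, 7.91 and 8.94 CPM in Sham rats 12, 17, 32 and 38, at 13.3, 10.5, 19.7 and 18.4 CPM in MI rats 36, 57, 61 and 89, and at 15.6, 14.5, 18.0 and 10.4 CPM in MI + UA rats 29, 58, 64 and 66. All infarcted rats lay above the Sham rats, and MI rat 57 and MI + UA rat 66 were the closest to them. C1qa rose by a log2 fold change of 0.84 in MI versus Sham (SE 0.19, edgeR adjusted p = 0.0054).

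C1qb (ENSRNOG00000012749), the B chain, went from 4.27, 4.33, 3.70 and 5.37 CPM in the Sham rats, in the same order, to 7.6, 11.6, 14.1 and 9.94 CPM in the MI rats, and was 9.66, 8.22, 11.6 and 7.48 CPM in the MI + UA rats. It rose in MI by a log2 fold change of 1.26 (SE 0.21, edgeR adjusted p = 0.000385), the largest estimate among the 3 chains, with a 95% confidence interval from 0.83 to 1.69 that overlapped that of C1qa, from 0.44 to 1.24. The difference between C1qb and C1qa within a rat was between -1.12 and -0.73 on the log2 scale in Sham and between -0.88 and 0.14 in MI, so the groups overlapped. Rat 57 gave the value of 0.14, with 74 reads on C1qb and 67 on C1qa. C1qc (ENSRNOG00000012804), the C chain, was at 8.53, 11, 11.1 and 10.6 CPM in the Sham rats, at 14.9, 15.7, 19.6 and 20.0 CPM in the MI rats and at 18.9, 19.1, 20.6 and 13.2 CPM in the MI + UA rats. Both infarcted groups lay wholly above Sham, and MI gave a log2 fold change of 0.78 (SE 0.15, edgeR adjusted p = 0.00209). Without any 1 rat, each of the 3 chains kept an adjusted p-value under 0.05 in this comparison, the largest being 0.027 for C1qa.

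The C1 proteases rose as well. C1r (ENSRNOG00000011796) stood at 71.3, 65.5, 66.3 and 68.9 CPM in the Sham rats, at 90.7, 81.1, 111 and 97.4 CPM in the MI rats and at 96.3, 90.2, 95.8 and 77.0 CPM in the MI + UA rats. The Sham rats lay close together, at 68.0 ± 2.6 CPM (mean ± SD, n = 4), and every infarcted rat was above them. The log2 fold change of C1r in MI versus Sham was 0.49 (SE 0.10, edgeR adjusted p = 0.00231). C1s (ENSRNOG00000011971), its substrate and partner, stood at 88.6, 71.4, 92.8 and 93.5 CPM in the Sham rats, at 125, 113, 142 and 150 CPM in the MI rats and at 126, 127, 154 and 127 CPM in the MI + UA rats. Sham rat 17 and MI + UA rat 64 stood apart from their groups, and Sham did not overlap with the others. The rise of C1s in MI came to 0.61 on the log2 scale (SE 0.11, edgeR adjusted p = 0.000587). The log2 difference of C1s and C1r within a rat ran from 0.12 to 0.48 in Sham, from 0.35 to 0.62 in MI and from 0.38 to 0.72 in MI + UA.

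C3 (ENSRNOG00000046834), the protein on which all activation routes converge, had the largest estimated change and the fewest reads. It had 7, 7, 7 and 5 reads in the Sham rats, 56, 15, 21 and 121 in the MI rats and 34, 23, 33 and 41 in the MI + UA rats. In CPM this was 0.878, 1.01, 1.18 and 0.596 in Sham, 4.09, 2.35, 2.18 and 9.86 in MI and 1.94, 2.95, 4.47 and 2.31 in MI + UA. The infarcted rats did not overlap with Sham, and MI rat 89, at 9.86 CPM, stood far above the next MI rat, at 4.09 CPM. The log2 fold change in MI versus Sham was 2.40 (SE 0.48, edgeR adjusted p = 0.00204), with a 95% confidence interval of 2.66-fold to 10.5-fold. Without rat 89 it was 1.71 (edgeR adjusted p = 0.00855).

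Serping1 (ENSRNOG00000007457), the inhibitor of C1r and C1s, stood at 42.7, 51.5, 44.9 and 48.4 CPM in the Sham rats, at 68.1, 57.1, 82.5 and 103 CPM in the MI rats and at 73.0, 66.7, 93.8 and 52.9 CPM in the MI + UA rats. The infarcted rats were again all above Sham, rat 66 by the smallest margin. Serping1 rose by a log2 fold change of 0.73 in MI versus Sham (SE 0.16, edgeR adjusted p = 0.0043), so the transcripts of the inhibitor and of both its target proteases were higher in the same hearts.

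C3ar1 (ENSRNOG00000009211), the receptor for C3a on myeloid cells, was at 5.27, 7.07, 7.41 and 6.44 CPM in the Sham rats, at 13.1, 5.65, 13.1 and 14.2 CPM in the MI rats and at 10.6, 13.1, 13.4 and 8.38 CPM in the MI + UA rats. MI rat 57 lay within the Sham range, while the other MI rats were well above it. The log2 fold change in MI versus Sham was 0.86 (SE 0.22, edgeR adjusted p = 0.0157). It was 1.05 without rat 57. The adjusted p-value was 0.0602 without MI rat 89 and 0.0593 without Sham rat 12, so this call depended on single rats.

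Whether the members changed by equal amounts was tested with the difference of a gene pair within each rat. C1s minus C1qa, on the log2 CPM scale and as mean ± SD of 4 rats, was 3.30 ± 0.21 for Sham and 3.12 ± 0.25 for MI, a difference of -0.17 (two-sided exact permutation test, p = 0.343, and 0.609 adjusted over 4 tests). C3 minus C1qa was -3.15 ± 0.45 for Sham and -1.95 ± 0.93 for MI, a difference of 1.20 (two-sided exact permutation test, p = 0.0857, and 0.343 adjusted over 4 tests). Neither the smaller fold change of C1s nor the larger one of C3, each set against C1qa, was separated from the spread between rats with the rats grouped as labelled. For 4 rats against 4 the smallest p of this test is 0.0286, so after adjustment over 4 tests no single pair could pass 0.05 on its own. The adjusted values therefore do not show that the genes changed alike. With rat 66 counted in MI the difference for C3 minus C1qa was 1.16 (exact permutation test, unadjusted p = 0.0476). With a prior count of 5 in the log2 CPM, in place of 1, it was 0.89 (exact permutation test, unadjusted p = 0.114). Without MI rat 61 it was 1.59 (exact permutation test, unadjusted p = 0.0286, the smallest for 3 rats against 4).

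The second comparison asked whether UA altered complement expression in infarcted hearts. By edgeR and by DESeq2, 0 of the 8 genes were called in MI + UA versus MI, and none fell under 0.05 before adjustment in edgeR's test. Over all 18182 genes, 0 (0%) passed the adjusted threshold in edgeR and 3.79% had an unadjusted p-value under 0.05. The MI and MI + UA rats overlapped at every one of the 8 genes, where 1.05% of genes with an average log2 CPM of at least 1 had every MI + UA rat above every MI rat and 0.976% every one below. The median log2 fold change was -0.10 over the 8 genes and 0 over all genes.

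The intervals show which effects of UA these rats could have missed. For C1s the log2 fold change was 0.01 with a 95% confidence interval from -0.20 to 0.23, and for C1r it was -0.09 (95% confidence interval from -0.29 to 0.11). C1qa gave -0.11 (95% confidence interval from -0.48 to 0.25), C1qb -0.22 (from -0.60 to 0.15) and C1qc 0.01 (from -0.28 to 0.31). Serping1 gave -0.13 (from -0.45 to 0.19) and C3ar1 -0.08 (from -0.50 to 0.35). C3 had the largest difference, with 4.62 ± 3.60 CPM in MI and 2.92 ± 1.11 CPM in MI + UA (mean ± SD, 4 rats each) and a log2 fold change of -0.78 (SE 0.38, unadjusted p = 0.0508 from edgeR, adjusted p = 1). Without MI rat 89, the rat with the most C3 reads, this value was -0.08.

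**Figure D2:**
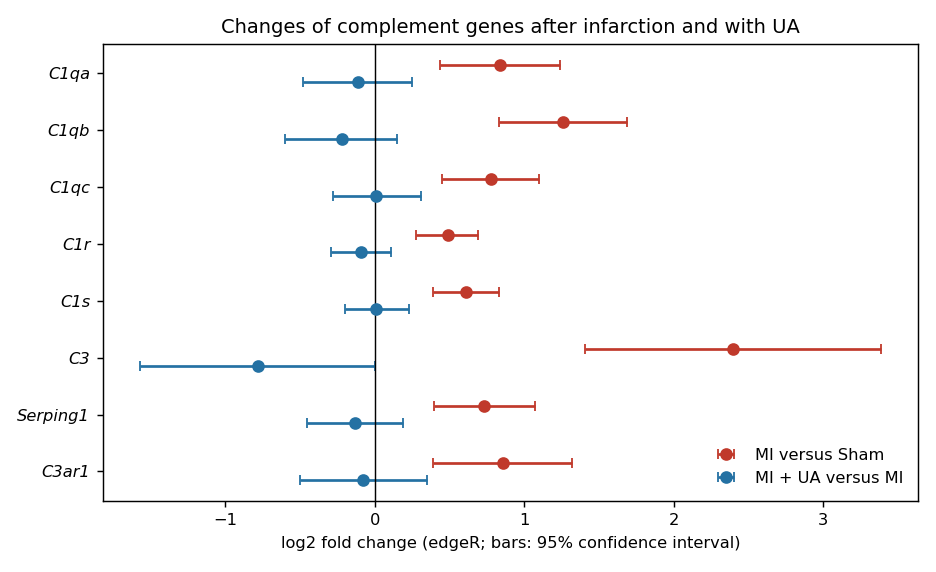
Log2 fold change (x axis) with its 95% confidence interval for the 8 complement genes (y axis) in MI versus Sham and in MI + UA versus MI. The MI versus Sham values lie between 0.49 and 2.40 with intervals above 0, and the MI + UA versus MI values lie between -0.78 and 0.01 with intervals that reach 0.

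In MI + UA versus Sham the 8 genes were also higher, with log2 fold changes between 0.40 for C1r and 1.62 for C3, and each passed the same edgeR threshold, against 5.16% of all genes called higher. The groups did not overlap at any of the 8 genes, against 9.58% of genes with an average log2 CPM of at least 1. This comparison shares its Sham rats with the first. The calls were less secure here. Leaving out MI + UA rat 64 or Sham rat 32 left 4 genes called, and leaving out Sham rat 12 left 5. C1qb, C1qc, C1r and C1s kept their call without any 1 rat. C3 had an adjusted p of 0.0461 in edgeR's test, and it kept the call in only 2 of the 8 fits without 1 rat and lost it, at an adjusted p of 0.0565, with rat 66 counted in MI. C3ar1 also kept its call in 2 of those 8 fits, Serping1 in 5 and C1qa in 6.

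Certain rats were often lowest or highest in their group, though not at every gene. Among the MI rats, rat 57 was lowest for 5 of the 8 genes and rat 89 highest for 5. Rat 57 was above rats 36 and 89 for C1qb, and rat 61, highest for 3 genes, was lowest for C3. Among the MI + UA rats, rat 66 was lowest for 6 and rat 64 highest for 7. How often each rat was lowest or highest over all genes was not counted. Rats 57 and 66 also had the largest mitochondrial share of gene reads in their groups, at 57.6% and 56.8%, and its part was not tested. Cell type markers are given for the same rats. The summed level of 15 macrophage markers was 239 CPM in rat 66 and 466 CPM in rat 64, the lowest and the highest of MI + UA. The 9 fibroblast markers summed to 2320 CPM in rat 66, the lowest, and to 3610 CPM in rat 64, below rat 58 at 3790 CPM. For rat 57 the fibroblast sum was the lowest of MI, at 2310 CPM, but the macrophage sum of 308 CPM was above that of rat 36, at 275 CPM.

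**Figure D3:**
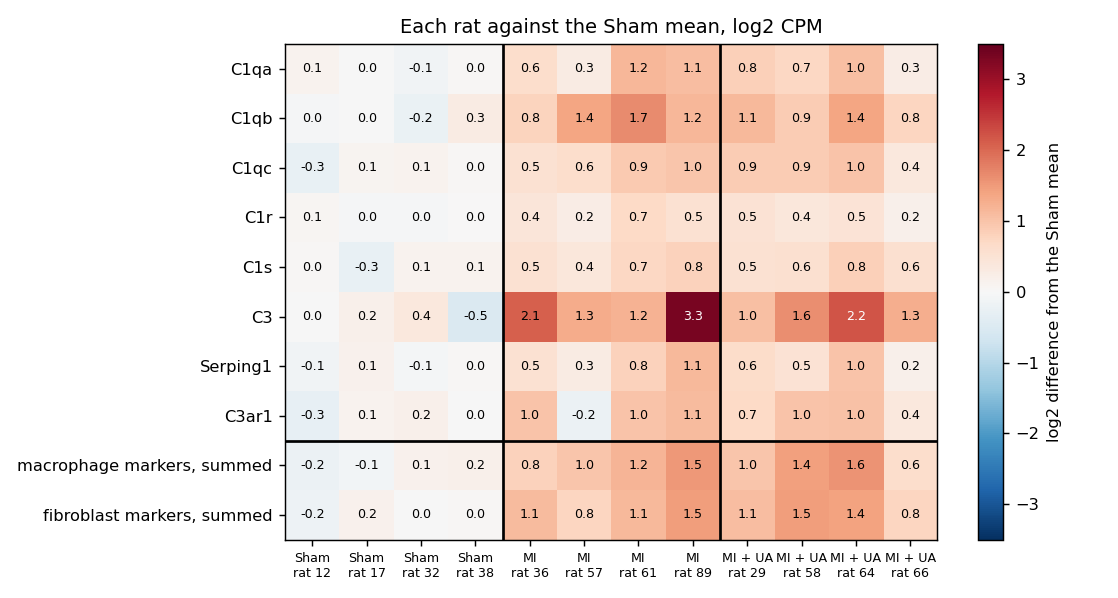
Log2 difference of each of the 12 rats (columns) from the Sham mean for the 8 genes and for the summed macrophage and fibroblast markers (rows), with red for higher and blue for lower. C3 in MI rat 89 reached 3.34, C3ar1 in MI rat 57 was -0.20, and MI + UA rat 66 showed the palest colours of its group in most rows, such as C1qa at 0.26.

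Marker transcripts of cell types known to make complement were higher in the infarcted hearts. Of the 15 macrophage markers tested, 11 were higher in MI than in Sham by edgeR's adjusted p, and their summed level was between 134 and 175 CPM in Sham, between 275 and 443 CPM in MI and between 239 and 466 CPM in MI + UA. Of 9 fibroblast markers 7 were higher, and they summed to between 1200 and 1530 CPM in Sham, between 2310 and 3750 CPM in MI and between 2320 and 3790 CPM in MI + UA. Of the 6 cardiomyocyte markers 5 were lower in MI, with sums between 16600 and 20300 CPM in Sham and between 12100 and 13100 CPM in MI. The median log2 fold change was 1.07 over the macrophage and 0.92 over the fibroblast markers, against 0.81 over the complement genes. The part of these cell types in the complement values was not tested. Of the 7 hepatocyte markers, Fga, Fgb and Serpina1 had 0 reads in the 12 libraries together, which allows up to 0.0247 CPM each, and Alb had 2 reads. The 7 summed to between 1.32 and 3.11 CPM over all rats, most of it from Ttr with 248 reads, and 0 of the 2 tested were called. Mesothelial markers, which would come from the heart's outer lining, summed to between 9.42 and 16.2 CPM in Sham and between 12.9 and 16.6 CPM in MI, with 0 of 5 tested markers called. Neutrophil and lymphocyte markers had 0 of 2 and 0 of 6 called, at sums of at most 2.2 and 3.53 CPM in MI. Of 5 endothelial markers 1 was lower and 0 higher, at sums between 643 and 732 CPM in Sham and between 591 and 699 CPM in MI. Adipocyte markers were nearly absent, at no more than 3.58 CPM in any rat and 0 of 2 called.

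A wider list of 54 complement genes, the 9 members among them, set these genes in their pathway. It too was chosen with earlier results of these data known, so its counts are a description only. Of the 54, 48 had a row and 40 were tested. In MI versus Sham 17 of the 40 were higher and 0 lower by edgeR's adjusted p, where 5.82% of all genes were higher and 5.53% lower. Leaving the members aside, 9 of 32 were higher, and the median over these 32 was 0.37 on the log2 scale. The other genes are described by role.

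C4, the substrate of C1s, had the largest estimated changes of the wider list. C4a went from between 11.8 and 19.5 CPM in Sham to 140, 47.4, 111 and 158 CPM in MI rats 36, 57, 61 and 89, a log2 fold change of 2.88 (SE 0.32, edgeR adjusted p = 6.51e-06). C4b went from between 8.91 and 12.9 CPM to between 22.4 and 78.2 CPM, a log2 fold change of 2.47 (SE 0.31, edgeR adjusted p = 2.51e-05). No Sham rat overlapped with an MI rat at either gene, and rat 57 was the lowest MI rat at both. C4a and C4b are near-identical copies, so the split of reads between them is uncertain. Reads on C4a were between 1.23 and 1.93 times those on C4b in Sham and between 1.92 and 2.13 times in MI. C1rl, a relative of C1r, rose by 1.17 (SE 0.27), and Cfb, the protease of the alternative pathway, by 1.00 (SE 0.25) on the log2 scale, with overlapping groups for Cfb. Masp1 and Masp2, the proteases of the lectin pathway, had log2 fold changes of -0.24 and 0.30 and were not called, nor were Cfd at 0.07 and properdin (Cfp) at 0.44.

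Among recognition molecules other than C1q, Colec12, a collectin of the cell surface, rose by a log2 fold change of 0.55 (SE 0.18), and its groups overlapped. Colec11, a soluble collectin, was at 0.00 (SE 0.15) and was not called. Of the terminal components that build the membrane attack complex, none was called. C6 had a log2 fold change of 0.82 (SE 0.27, edgeR adjusted p = 0.0536), C8g of -0.51 (SE 0.26) and C5, with an average log2 CPM of -1.26, of -0.08 (SE 1.01). C8a had 0 reads, C8b 1 and C9 7 over the 12 rats, too few to be tested.

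Among the regulators other than Serping1, Cd55, the membrane decay-accelerating factor, rose by 0.50 (SE 0.13). Clu, Vtn, Cd59 and Cr1l had log2 fold changes of 0.08, -0.22, -0.07 and 0.13, with SE of at most 0.17, and were not called.

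Receptors other than C3ar1 included C5ar2, an atypical receptor for C5a, which rose by 0.94 (SE 0.19), and Vsig4, a macrophage receptor for C3 fragments, which rose by 1.27 (SE 0.35) with overlapping groups. Itgam and Itgb2, the chains of complement receptor 3, had log2 fold changes of 1.09 (SE 0.42) and 0.87 (SE 0.39) with adjusted p-values of 0.104 and 0.173 in edgeR's test, although the groups did not overlap. Itgax and Cd93 had 0.18 and -0.20 and were not called.

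**Figure D4:**
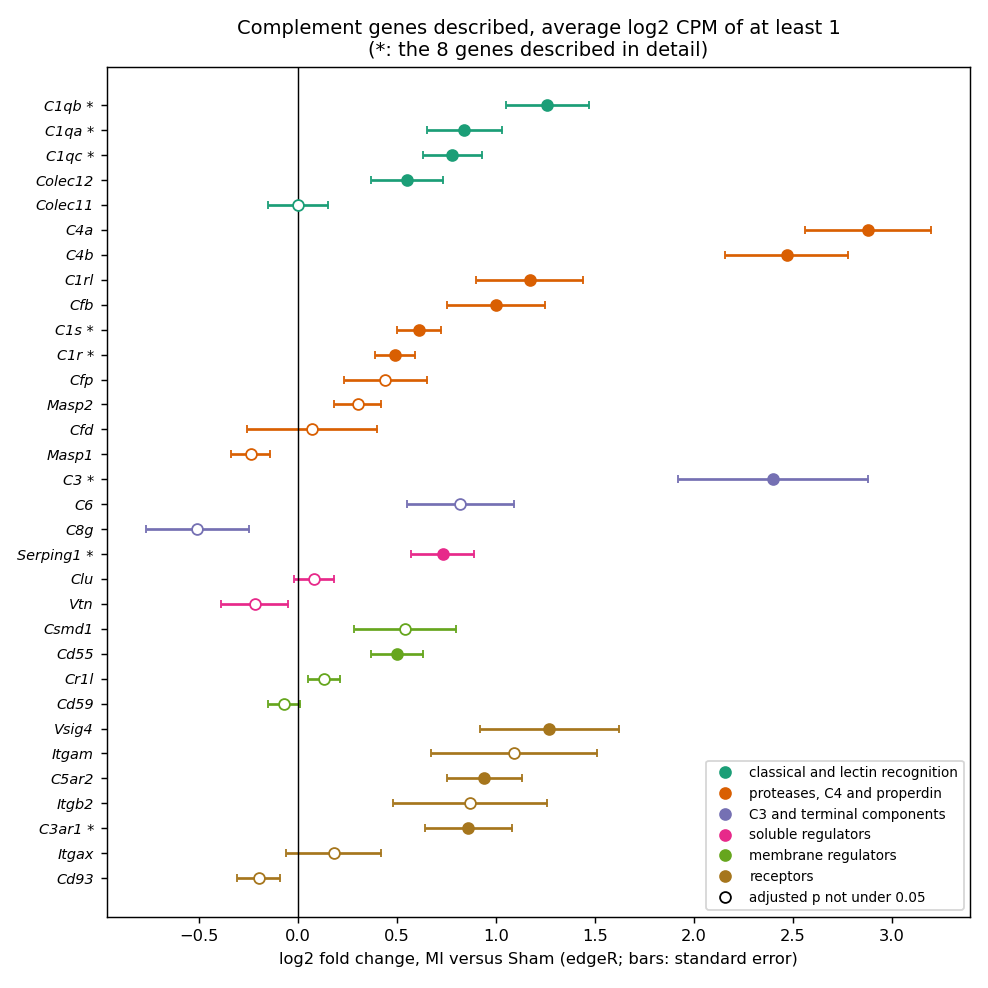
Log2 fold change in MI versus Sham (x axis, bars give the SE) for 32 complement genes of the wider list with an average log2 CPM of at least 1, coloured by role, with filled points for the 16 of them whose adjusted p-value was under 0.05. The figure leaves out part of the list that is not reported here, so fewer genes are filled than the 17 called. C4a, C4b and C3 lie farthest to the right and C8g farthest to the left.

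Under UA, 0 of the 40 complement genes were called against MI by edgeR or DESeq2, and 0 fell under 0.05 before adjustment in edgeR's test. Their median log2 fold change was 0. The estimate was above 0 for 20 of the 40. It was -0.27 (SE 0.28) for C4a, -0.30 (SE 0.26) for C4b and -0.36 (SE 0.23) for Cfb. On the other side it was 0.42 (SE 0.30) for Cfd, 0.43 (SE 0.36) for Itgam and 0.41 (SE 0.34) for Itgb2. In MI + UA versus Sham 17 of the 40 were higher and 0 lower, against 5.16% and 4.27% of all genes. Leaving out MI + UA rat 64, Sham rat 12 or Sham rat 32 left 11. The genes called were not all those called in MI versus Sham. Itgam (log2 fold change 1.52, edgeR adjusted p = 0.0208) and Itgb2 (1.28, edgeR adjusted p = 0.0382) were called in MI + UA versus Sham only. Colec12, Cfb and Vsig4 were called in MI versus Sham only.

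The genes whose profiles over the 12 rats came closest to the members are given as a description. Profiles were log2 CPM centred on each gene's mean, and their distance was the root mean square difference. For C1qa the nearest of 10929 genes were Mmp2, Nckap1l and Serping1, each at 0.15. The median distance over all these genes was 0.50 from C1qa and ran from 0.34 for C1r to 1.05 for C3. C1qb was nearest to Igfbp6 at 0.14, with Lrp1 at 0.20. C1qc was nearest to Smim14, Actn1 and Omd at 0.09, C1r to Kif3b at 0.07, Cdr2l at 0.08 and Anxa7 at 0.09, and C1s to Cap1 and Actb at 0.10 and Ptprf at 0.11. Serping1 was nearest to Arpc1b at 0.13, Notch2 at 0.14 and C1qa at 0.15, and C3ar1 to Cdh11 and Slit3 at 0.19 and Mmp14 at 0.20. The genes nearest to C3 lay farther away, with Svep1 at 0.45, Clec11a at 0.46 and P2ry12 at 0.51, against its median of 1.05. C3 also had the fewest reads, which widens such distances. Among the members themselves, C1qa and Serping1 (0.15) and C1r and C1s (0.16) were the closest pairs, and C1r and C3 the farthest apart (0.87).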

How the data were processed

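RNA of 12 rat hearts, 1 library per rat, was sequenced as strand-specific read pairs after depletion of ribosomal RNA, although the labels call the molecule polyA RNA. Per the submitters' processing notes, the authors mapped the reads with STAR 2.6.1c to the Ensembl genome mRatBN7.2, counted them per gene with htseq-count, used MultiQC 1.8 and deposited raw counts without normalization. The strand setting of the counting is not given in the sources used here, so overlapping antisense genes cannot be told apart. The 5 summary lines of htseq-count, such as reads on no feature or not unique, were left out.

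Genes with at least 10 counts in total, 18182 of 30560, were normalized by TMM and tested with edgeR 4.0.16 (quasi-likelihood, 3 groups in 1 fit, Benjamini-Hochberg adjustment over all genes, threshold 0.05) in R 4.3.3. DESeq2 1.42.0 was an alternative. SE was the log2 fold change divided by the square root of its F statistic. Log2 CPM used a prior count of 1. Gene pairs were compared by exact permutation over rats. Libraries held from 6228706 up to 19031695 gene reads, and with 4 rats a group single low genes such as C3 have wide intervals. Floors for 0 reads are 3 counts and cover counting error only. The libraries are separate animals.

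The members and gene lists were chosen with earlier results of these data known. Named genes are the members, genes of the wider complement list past the threshold in any comparison or with an average log2 CPM of at least 1, markers at or near 0, and the 3 genes nearest to each member. C5, C8a, C8b, C9 and Ttr fall outside this rule and were named after their values were seen. Some genes within this rule are not reported here by name or value, though counts over the list include them. Levels were not compared between genes, since no transcript lengths were used. Promoter windows came from RefSeq (GRCr8), matched by symbol. A library that the study excluded was not analysed here. Alternatives were DESeq2, a fit of 2 groups, filterByExpr, no filter, DESeq2 size factors, TMM without the 13 mitochondrially encoded genes, rat 66 in MI, other prior counts and leaving out each rat. Figures were drawn with matplotlib 3.10.9.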

Additional observations from a re-analysis of the deposited data

Results flagged for a closer look

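Members' log2 CPM, summed marker levels and library measures were searched for a rat far from its group, by the gap to the nearest rat over the range of the group. Of 57 groups of 4 examined, 3 exceeded the critical ratio of 0.829, where chance gives about 1 in 20. The adipocyte sum was 0 CPM in Sham rat 32, MI rat 57 and MI + UA rat 64, so on the log2 scale its groups could not be flagged. For that sum MI rat 36 stood at 3.58 CPM, with the next MI rat at 0.326 CPM. C3ar1 was lowest in MI rat 57, at 2.52 on the log2 CPM scale with the next MI rat at 3.72 (ratio 0.912). C1s was highest in MI + UA rat 64, at 7.27 with the next rat at 6.99 (ratio 0.94). MI + UA rat 58 had the lowest gene share of its reads, at 46.2% with the next rat at 50.3% (ratio 0.891).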

How the results depend on the processing

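No paired analysis was possible because each rat belongs to a single group. In MI versus Sham, 8 members were called under each of the 7 other settings that kept all rats, and between 7 and 8 without 1 rat. Of the wider list, between 16 and 19 genes were called under those settings. In MI + UA versus MI, 0 members were called under any setting. The count over all genes there was 3 without a filter on low counts and between 0 and 1 without 1 rat. Leaving out 1 rat gave between 4 and 8 members and between 11 and 18 genes of the wider list in MI + UA versus Sham. Moving rat 66 to MI turned the UA effect against MI, on the log2 scale, to 0.14 for C1qa, 0.04 for C1r, 0.15 for C3ar1 and 0.09 for Serping1, and C1s minus C1qa to -0.14. Without 1 rat the sign also changed for 5 members and 1 gene pair. The range was -0.24 to 0.03 for C1qa, -0.07 to 0.15 for C1qc, -0.06 to 0.08 for C1s, -0.27 to 0.05 for C3ar1, -0.28 to 0.04 for Serping1 and -0.05 to 0.18 for C1s minus C1qa. C3 minus C1qa in MI versus Sham was 1.16 with rat 66 in MI (exact permutation test, unadjusted p = 0.0476) and between 0.84 and 1.59 without 1 rat. The cause of these changes was not tested, beyond the fewer rats in each fit. A prior count of 5 raised the mean log2 CPM of C3 in Sham to 0.48 from -0.01. Depth limits C3 most, with 26 reads in the 4 Sham rats together.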
